A study of Mus musculus with 2 samples.

Results

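Gene-sparse windows of the mouse genome that nevertheless had an early replication score were examined in embryonic stem cells. A window was a fixed 1 Mb segment of chromosomes 1 to 19 with at least 20 measured positions. It belonged to the class when it held the midpoints of 1 to 4 protein-coding genes and its mean score lay above 0. The class had 83 members, out of 796 windows with 1 to 4 genes and 2387 autosomal windows in all. Because the same score chose the windows, every score below is a description of the chosen windows, and nothing was tested.

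The study sorted 46C mouse embryonic stem cells of strain 129P2/Ola, kept with leukemia inhibitory factor, into an early S phase fraction and a late S phase fraction. All cells had taken up bromodeoxyuridine (BrdU, a thymidine analogue built into new DNA) at 50 µM for 2 h, and labelled DNA of 10000 cells was immunoprecipitated, amplified and sequenced in 1 library for the early S fraction and 1 for the late S fraction. The authors joined both libraries in 1 score per position, smoothed over 300 kb, so each value belongs to the pair and carries no replicate error. Positive was read as early from the order of the words in the table's name. What log base the score has and where its 0 was set are not stated, and the read depth is unknown. The measured molecule was DNA, so the cell type could not be checked against expressed markers.

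S phase follows a fixed programme in which large stretches of chromosome, called replication domains, are copied at characteristic times. Early domains are known to lie in open chromatin of the nuclear interior, to be rich in genes and to fire many origins, while late domains tend to lie at the nuclear periphery and to be poor in genes. Regulatory genes of development are known to sit often in long stretches without other genes, which hold their distant enhancers. Windows with few genes and early scores are therefore the places where gene number and timing part.

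Of 38 autosomal pluripotency genes on a list, 5 were in the class, 1.95% of its genes against 0.18% of all autosomal protein-coding genes. They were Sox2, Klf4, Mycn, Otx2 and Tbx3. The promoters of 4 of these are shown to show how they differ in CpG dinucleotides, together with those of Shq1 and Akr1d1, which had the highest and the lowest ratio of observed to expected CpG (1.18 and 0.067 over 300 bases) among genes of the 10 windows with the highest means. The sequences come from RefSeq (GRCm38.p6, the build whose coordinates are those of mm10), are written 5′ to 3′ on the strand of the gene, stop where the annotated gene begins, and have each CpG in capitals.

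Sox2, chr3:34649745-34649994, plus strand: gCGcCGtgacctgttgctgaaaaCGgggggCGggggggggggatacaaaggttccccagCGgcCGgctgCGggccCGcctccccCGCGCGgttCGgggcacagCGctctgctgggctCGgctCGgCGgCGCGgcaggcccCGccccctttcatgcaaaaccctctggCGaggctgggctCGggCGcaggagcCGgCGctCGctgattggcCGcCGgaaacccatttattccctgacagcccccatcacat

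Klf4, chr4:55532476-55532725, minus strand: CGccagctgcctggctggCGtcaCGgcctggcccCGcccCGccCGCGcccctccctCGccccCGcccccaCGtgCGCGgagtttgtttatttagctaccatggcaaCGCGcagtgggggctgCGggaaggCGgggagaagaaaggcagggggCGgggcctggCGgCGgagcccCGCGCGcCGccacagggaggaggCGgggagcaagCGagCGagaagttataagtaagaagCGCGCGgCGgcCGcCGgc

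Mycn, chr12:12941837-12942086, minus strand: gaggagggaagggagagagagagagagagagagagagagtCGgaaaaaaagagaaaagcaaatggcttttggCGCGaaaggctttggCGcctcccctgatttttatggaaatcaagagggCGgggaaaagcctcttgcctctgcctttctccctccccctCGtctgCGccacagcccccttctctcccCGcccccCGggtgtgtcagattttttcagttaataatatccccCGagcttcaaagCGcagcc

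Otx2, chr14:48667645-48667894, minus strand: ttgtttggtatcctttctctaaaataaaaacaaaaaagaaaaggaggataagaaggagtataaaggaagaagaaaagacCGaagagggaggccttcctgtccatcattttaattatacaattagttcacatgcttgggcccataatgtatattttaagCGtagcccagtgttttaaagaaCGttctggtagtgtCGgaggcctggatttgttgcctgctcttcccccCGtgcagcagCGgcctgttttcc

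Shq1, chr6:100671184-100671407, minus strand: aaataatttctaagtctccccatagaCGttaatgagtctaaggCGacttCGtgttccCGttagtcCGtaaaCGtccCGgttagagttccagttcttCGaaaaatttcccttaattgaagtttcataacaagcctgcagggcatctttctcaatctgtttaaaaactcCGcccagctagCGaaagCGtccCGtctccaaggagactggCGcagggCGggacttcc

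Akr1d1, chr6:37529923-37529977, plus strand: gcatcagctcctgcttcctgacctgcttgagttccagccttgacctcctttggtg

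The Klf4 stretch held 32 CpGs in 250 bases, that of Sox2 27, that of Mycn 11 and that of Otx2 6. The stretch of Shq1, a gene for assembly of small nucleolar ribonucleoproteins, held 14 in 224 bases. The 55 bases before Akr1d1, which encodes a bile acid and steroid reductase of liver, held 0. CpG-rich and CpG-poor promoters thus both occurred in windows of the class, and the whole set is described further on.

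Gene number and score were tied within the class limits. Of windows with 1 gene, 10 of 302 had a mean above 0, of those with 2 genes 13 of 187, with 3 genes 19 of 146 and with 4 genes 41 of 161. None of the 268 windows without a protein-coding gene did, and their highest mean was -0.062. Over all autosomal windows 41.1% had a mean above 0, and of those with 1 to 4 genes 10.4%, which is the class itself. Windows of the class with 1 gene did not exceed a mean of 0.29, while the highest means were 0.97 with 2 genes, 0.85 with 3 and 1.11 with 4.

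The windows were moderately early as a class. Their means had a median of 0.29 (quartiles 0.14 and 0.53, SD 0.29 over 83 windows, range 0.00094 to 1.11), against -1.0 in the 713 gene-sparse windows at or below 0 (called gene-sparse late windows here). The median was 0.54 in the 285 early windows with 5 to 9 genes and 1.10 in the 614 early windows with 10 or more. In the class 26 means lay above 0.5 and 36 below 0.25, so much of the class sat near the threshold. The mean also hid mixed windows. In 71 of 83 (85.5%) at least 1 position lay below 0 and in 27 (32.5%) at least 1 lay below -1, and the median window had 68.4% of its positions above 0. A further 12 windows had no position at or below 0. Mixed windows were common in early windows with 5 to 9 genes too. Of those, 225 of 285 (78.9%) had a position below 0 and 67 (23.5%) had one below -1, with a median of 76.7% of positions above 0. In the class the score crossed 0 exactly 1 time inside 36 windows and 2 times inside 20, and at most 6 times. The lower and upper 500 kb of a window differed by a median of 0.64 and by up to 2.32 (81 windows with positions in both).

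**Figure D1:**
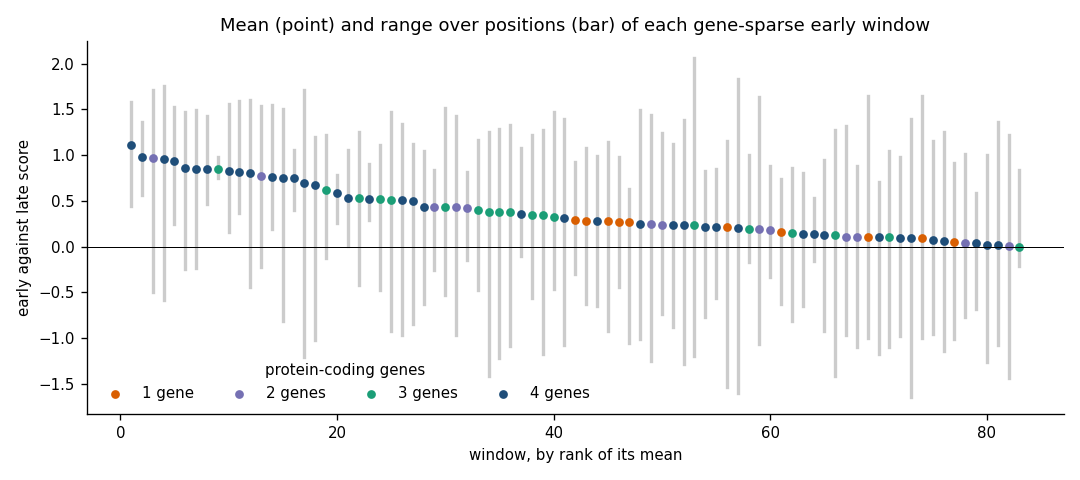
Mean score (points, coloured by the number of protein-coding genes) and range from the lowest to the highest position (grey bars) of each of the 83 windows, ordered by mean on the horizontal axis, with the early against late score on the vertical axis. Means run from 1.11 down to 0.00094, and the grey bars of 71 windows reach below 0.

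**Figure D2:**
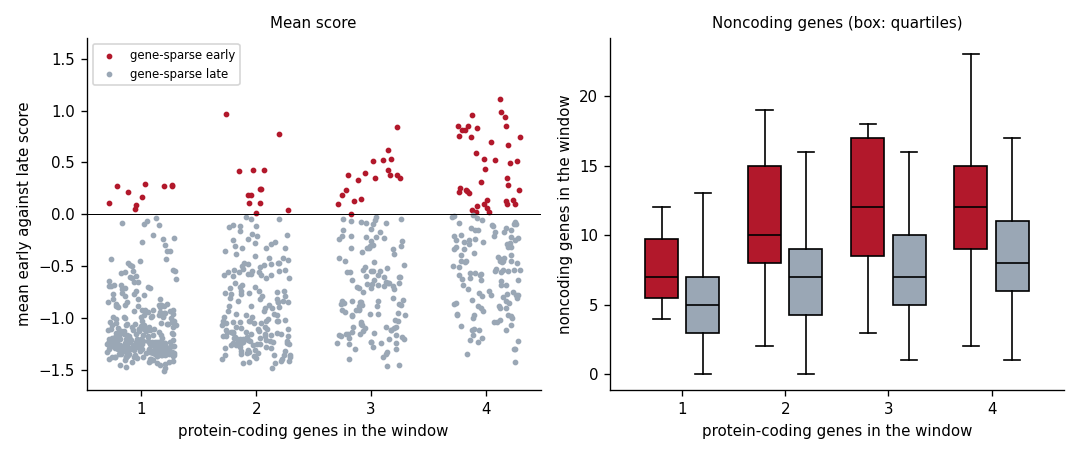
Left, mean score of gene-sparse early windows (red) and gene-sparse late windows (grey) by number of protein-coding genes, with points spread sideways for visibility. Right, number of noncoding genes per window in the same classes (boxes are quartiles, the line is the median, whiskers reach 1.5 times the box and values beyond are not drawn). The highest mean is 1.11 at 4 genes, and the median number of noncoding genes is higher in the early class at each gene number.

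The earliest window, chr2:59000000-59999999, had a mean of 1.11 and no position below 0.45. It held Pkp4 (0.52), a junction protein gene, Dapl1 (1.41), the synaptic scaffold gene Tanc1 (1.17) and Wdsub1 (1.27), each value being the score at the position nearest the gene's midpoint. Next came the end of chromosome 7, chr7:145000000-145999999, at 0.98. It held the lysosomal channel gene Tpcn2 (1.03), Smim38 (1.03) and 2 genes of Mas-related sensory receptors, Mrgprf (0.72) and Mrgprd (0.57), but was measured at 55 positions, where the median window had 163. The third, chr2:20000000-20999999, had a mean of 0.97 with only the long gene Etl4 (1.22) and Arhgap21 (1.09). All 3 were early at every gene they held.

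In the fourth window, chr6:100000000-100999999 (0.96), were Rybp (1.32), whose product is a subunit of Polycomb repressive complex 1, Shq1 (1.07), the xylosyltransferase gene Gxylt2 (0.45) and the phosphatase subunit gene Ppp4r2 (0.49). The fifth, chr5:148000000-148999999 (0.94), held Mtus2 (0.28), the cationic amino acid transporter gene Slc7a1 (1.26), Ubl3 (1.36) and Katnal1 (1.04), the gene of a katanin-like protein. In chr15:25000000-25999999 (0.86) were Basp1 (1.12), the filopodial myosin gene Myo10 (0.97), the gene of the endoplasmic reticulum autophagy receptor Retreg1 (1.34) and Zfp622 (0.64). This window was an early block between late ones, since its neighbours had means of -1.19 and -1.11.

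The remaining 4 of the 10 highest windows had means between 0.83 and 0.85. In chr6:37000000-37999999 the score climbed along the window, with Dgki at 0.15, Creb3l2 at 0.57, Akr1d1 at 1.28 and the chromatin reader gene Trim24 at 1.47. In chr12:99000000-99999999 the forkhead gene Foxn3 had 0.77, Gm51999 0.77, Efcab11 0.48 and Tdp1, which encodes a DNA repair enzyme that frees trapped topoisomerase, 1.13. The end of chromosome 19, chr19:61000000-61999999, was measured at 40 positions, the fewest of the class, and held Zfp950 (0.77), Gm7102 (0.81) and the cytokine receptor gene Csf2ra (0.91). In chr14:76000000-76999999 Gpalpp1 had 1.53, Nufip1 1.45, Tsc22d1 0.80 and Serp2 0.89. Of the genes in these 4 windows, Gpalpp1 had the highest score and Dgki the lowest.

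The runs of positions above 0 around the pluripotency genes of the class differed in gene content, with 1 protein-coding gene for Sox2, 2 for Mycn, 3 for Klf4, 6 for Otx2 and 118 for Tbx3. Sox2, one of the core pluripotency factors, had 1.04 at chr3:34649995-34652461. Its window (chr3:34000000-34999999, mean 0.52) also held Fxr1 (1.02) and Dnajc19 (0.96), yet the run of positions above 0 around Sox2, from 34446613 to 35056421 (0.61 Mb), held the midpoint of no other protein-coding gene. Between this run and the block of Fxr1 and Dnajc19 the score dropped to -0.47. Protein-coding genes covered 6.38% of the window, the lowest share in the class.

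Mycn, a growth-promoting transcription factor gene, had 1.43 at chr12:12936093-12941836, the highest of the pluripotency genes in the class. Its run of 0.81 Mb held the midpoints of 2 protein-coding genes. The other gene of its window (mean 0.43), Cyria, lay outside the run and was close to 0 at -0.0034. Otx2, a homeobox gene of the primed state and the forebrain, had 1.16 (chr14:48656781-48667644). In its window Tmem260 had 0.53 and Peli2, an ubiquitin ligase gene, -0.56, so the score climbed by more than 1 unit between neighbouring genes. Klf4 had 0.66 (chr4:55527137-55532475) on a falling slope, below Zfp462 (1.14) and the DNA repair gene Rad23b (1.02). The lowest position of the Klf4 window was -1.41.

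Tbx3, a T-box factor of the naive state, had 1.24 (chr5:119670534-119684724), and its neighbour Tbx5, known from heart and forelimb, had 0.72. Their window (mean 0.24) lay between windows at 1.24 and 1.31, so here a dip in an early region, down to -0.74, lowered the mean. Protein-coding genes covered 10.3% of it. The 5 genes had a median of 1.16, against 1.33 for the 38 autosomal genes of the list (37 of 38 above 0) and 0.72 for all 257 genes of the class. These lists were drawn up with earlier results of these data known.

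**Figure D3:**
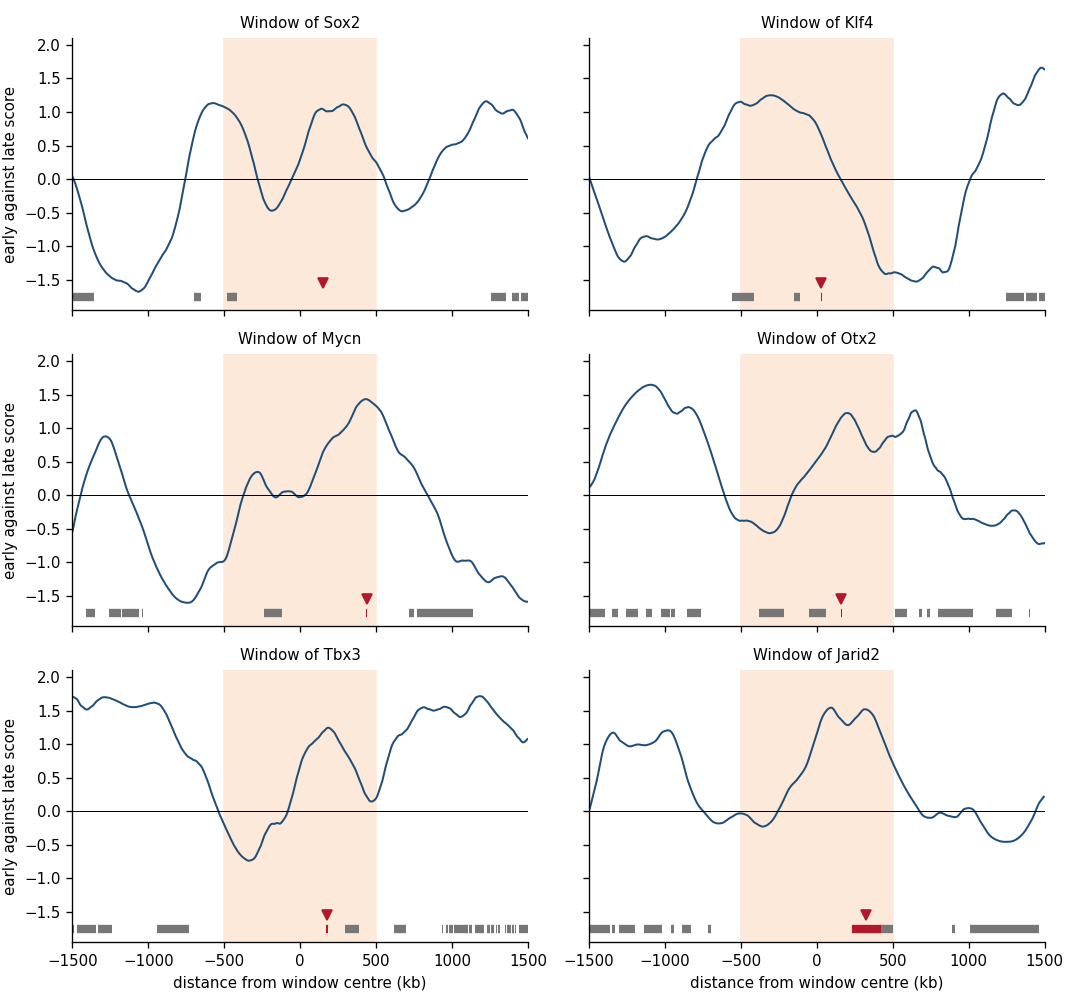
Early against late score (line) by distance in kb from the centre of 6 windows, each shaded, with protein-coding genes as grey bars at the bottom and the named gene in red under a triangle. Klf4 sits on a slope at 0.66. The highest position of the Jarid2 window, 1.54, lies 133 kb from any protein-coding gene and that of the Sox2 window, 1.11, 128 kb.

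The class held 3 of the 55 genes on a list of chromatin regulators, all above 0 at their midpoints. So were 220 of all 257 genes of the class and 50 of the 55 genes of the list. Other chromatin genes of the class named here, such as Rybp, Aebp2, Trim24 and Psip1, were not on the list. Jarid2, which encodes a subunit of Polycomb repressive complex 2, had 1.52 (chr13:44730774-44921643) and shared its window with only Dtnbp1 (0.94). The remodeller gene Chd2 had 1.49, next to the guidance molecule gene Rgma (1.25), while St8sia2 in the same window had -0.14. Chd7, another remodeller gene, had 0.49, and Car8 in its window had -1.03. In the class the listed genes made up 1.17% (3 of 257), against 0.33% of genes in gene-sparse late windows and 0.27% of all autosomal protein-coding genes.

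Developmental transcription factor genes, taken by name pattern, made up 13 of 257 genes of the class. This was 5.06%, against 4.93% (74 of 1501) in gene-sparse late windows, 1.55% (190 of 12240) in early windows with 10 or more genes and 1.81% of all autosomal genes. Their share was therefore close to that of other gene-sparse windows. All 13 had midpoints above 0, with a median of 0.66, as had 85.6% of all genes of the class, chosen by this score, and 288 of 372 genes of the list. Beside those already given they were Prdm1 (0.62), a repressor of germ cell and plasma cell fate, the homeobox gene Msx2 (0.59), Tshz2 (0.37), Nfib (0.37), and the forkhead genes Foxb2 (0.13) and Foxb1 (0.078).

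Zinc finger genes named by number made up 9 genes (3.50%), against 0.80% in gene-sparse late windows. Their share was 1.14% in early windows with 5 to 9 genes and 2.70% in those with 10 or more. Among all autosomal protein-coding genes it was 2.21%. Zfp462 (1.14), Zfp423 (1.07), Zfp516 (0.96) and Zfp236 (0.96) were the earliest, followed by Zfp950 (0.77), Zfp644 (0.73), Zbtb10 (0.71), Zfp622 (0.64) and Zfp704 (0.52). Listed signalling genes numbered 3, namely Smad2 (1.06), which carries signals of Nodal and activin, the activin antagonist Fst (0.84) and the Hedgehog receptor gene Ptch1 (0.75). They made up 1.17% of genes of the class, against 2.60% in gene-sparse late windows and 1.12% of all autosomal protein-coding genes, so the share was near that of all genes. The list was not complete, and the Nodal antagonist gene Cer1 (-0.019) and the receptor gene Ror2 (0.77) were not on it.

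Listed adhesion genes (3 of 257, 1.17%) and listed ion channel genes (1 of 257, 0.39%) took smaller shares of the class than of gene-sparse late windows. There they were 3.26% and 2.80%. The list of ion channels was not complete, and the channel gene Tpcn2 (1.03) was not on it. Over all autosomal protein-coding genes the shares were 0.70% for adhesion, below that of the class, and 1.05% for ion channels. Of the listed genes Cdh4, a cadherin gene, had 0.36 and Tenm4 and Tenm3, teneurin genes of neuronal wiring, had -0.12 and -0.59. The potassium channel gene Kcnk2 had -0.76, and the kinetochore gene Cenpf in the same window had 1.07. Of the positions of that window 60.9% lay above 0. Of 42 long neuronal and fragile-site genes 2 were in the class, Magi1 and Tenm3. They were 0.78% of its genes, against 2.60% in gene-sparse late windows (39 genes) and 0.20% of all autosomal protein-coding genes. No listed housekeeping gene of 18 was in the class, and of 76 listed ribosomal protein genes 1 was, Rps24 at 0.56. The ribosomal protein gene Rplp1 (0.98) was in the class but not on the list. The class held 257 of 20558 autosomal protein-coding genes, and listed ribosomal protein genes were 0.39% of these 257, against 0.37% of all, so nothing is read from either count. Of 1505 listed sensory receptor genes 1 was in the class, Vmn2r18 at 0.16. This was 0.39% of its genes, against 0.27% in gene-sparse late windows and 7.32% of all autosomal protein-coding genes. Mrgprf and Mrgprd were not on that list. Of 267 listed cytokine, lectin or related genes 2 were in the class, Il17rd at 1.51 and Tnfsf11 (the RANK ligand gene) at -0.023. They were 0.78% of its genes, against 0.73% and 1.30%. Both shares were close to those of gene-sparse late windows.

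Of 45 replication genes on a list, 2 were in the class. They made up 0.78% of its genes, against 0.13% in gene-sparse late windows and 0.22% of all autosomal protein-coding genes. Rfc3, which encodes a subunit of the clamp loader, had 0.52 in the last window of chromosome 5, where Stard13 had 0.24. Cdc7, the kinase gene that triggers origin firing, had 0.42 beside the homeobox gene Barhl2 (0.50), Zfp644 and the meiotic helicase gene Hfm1 (0.69). Both lay below the median of the list, 1.33.

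Genes of the class were mostly but not all above 0. Of 257 genes 220 (85.6%) had a midpoint score above 0, against 390 of 1501 in gene-sparse late windows, and the share was 34.7% over both kinds of gene-sparse window and 74.4% over all autosomal protein-coding genes. At the listed gene start 185 of 206 were above 0, against 74.6% of all autosomal genes with a listed start. Since windows were chosen by the same score, nothing is read from this share. The highest was Taf4, a subunit of the general transcription factor TFIID, at 1.94, followed by the myosin light chain genes Myl12b (1.82) and Myl12a (1.78) and by Tmem51 (1.60). All genes were above 0 in 55 windows, and 28 windows held at least 1 of the 37 genes below 0.

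Several of the latest genes shared a window with clearly early ones. In chr16:29000000-29999999 the score climbed from gene to gene, from Plaat1 (-1.17) through the transporter genes Atp13a5 (-0.80) and Atp13a4 (-0.019) to Opa1 (1.06), which encodes a mitochondrial fusion protein. In chr13:114000000-114999999 Ndufs4 (0.96), of respiratory complex I, and Fst were early, and Mocs2 (-0.97) and the integrin gene Itga2 (-0.91) were late. In chr14:120000000-120999999 the receptor gene Oxgr1 (-0.94), the small GTPase gene Rap2a (-0.41) and Mbnl2 (-0.050) were below 0, and Ipo5, an importin gene, was at 1.10. In chr6:140000000-140999999 the sperm genes Plcz1 (-0.90) and Capza3 (-0.70) were late and Plekha5 (1.02) and Aebp2 (1.34), a Polycomb partner gene, early. Sv2b, a synaptic vesicle gene, had -0.95 next to Akap13 (0.36) and Klhl25 (1.13). Other genes below 0 were Fam216b (-0.44), Ust (-0.32), Zdhhc21 (-0.13), Galr1 (-0.10) and Cer1 (-0.019), the gene of the Nodal antagonist Cerberus.

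Long genes filled many of these windows. The median gene length was 73.7 kb in the class, against 71.6 kb in gene-sparse late windows, 39.0 kb and 15.2 kb in early windows with 5 to 9 and with 10 or more genes, and 17.6 kb over all autosomal protein-coding genes. Genes of 500 kb or more numbered 15 of 257 (5.84%), against 154 of 1501 (10.3%) in gene-sparse late windows. The 10 windows with 1 gene had a median gene length of 579 kb, against 172 kb in the 292 late windows with 1 gene. Those 10 held Tenm4, Zswim6, Ptprg, Exoc4, Pde4d, Tle4, Cobl, Pard3, Tshz2 and Magi1. Zswim6 had 0.48, the corepressor gene Tle4 0.82 and Cobl 0.38.

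Of the 15 genes of 500 kb or more, 8 had ends on opposite sides of 0 (53.3%), against 32 of 154 (20.8%) in gene-sparse late windows and 61 of 216 (28.2%) on all autosomes, and 7 had both ends above 0. The choice of windows by the score bears on this share. Dlgap1, a postsynaptic scaffold gene of 852 kb, had the widest span, with -1.53 and 1.37 at its ends and -0.57 at its midpoint. Pde4d, a phosphodiesterase gene and the longest of the class at 1302 kb, had -1.28 at its start and 0.45 at its end. Tenm3 (1297 kb) had 0.78 at the lower-coordinate end and -1.39 at the higher one. Etl4 had -0.89 at the lower-coordinate end and 1.22 at its midpoint. The nuclear receptor gene Rora had -0.78 and 0.58 at its ends, the synaptic exchange factor gene Kalrn 1.25 and -0.24, Atrnl1 0.61 and -0.76 and A830018L16Rik 0.80 and -1.07.

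In 8 genes of the class the midpoint lay below 0 while both ends lay above it, and the reverse was seen in 0. The exocyst gene Exoc4 had 0.76 and 0.94 at its ends and -0.23 at its midpoint, and Vps13b, a lipid transfer protein gene, had 0.71, 0.80 and -0.65. Tenm4 had 0.85, 0.70 and -0.12. The polarity gene Pard3 had 1.62 and 0.11 at its ends and -0.082 at its midpoint. Dip2c (0.78, 0.40 and -0.33), the G protein gene Gnaq (0.80, 0.25 and -0.052), Stk3 (0.33, 0.15 and -0.17) and Cyria (0.21, 0.045 and -0.0034) made up the rest. This pattern was seen in 3.11% of genes of the class and 0.87% in gene-sparse late windows. Among all autosomal protein-coding genes with values at all 3 places it was seen in 0.27%. Of genes of 500 kb or more, 4 of 15 showed it, against 6 of 154 in gene-sparse late windows and 17 of 216 on all autosomes. The choice of windows by the score bears on these shares, and genes of the class were longer than those over all autosomes. Ptprg (1.14 and 0.60 at the ends, 0.53 at the midpoint), Magi1 (0.91, 0.67 and 0.32) and Grip1 (0.24, 1.39 and 0.0049) were lowest at the midpoint too but above 0.

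**Figure D4:**
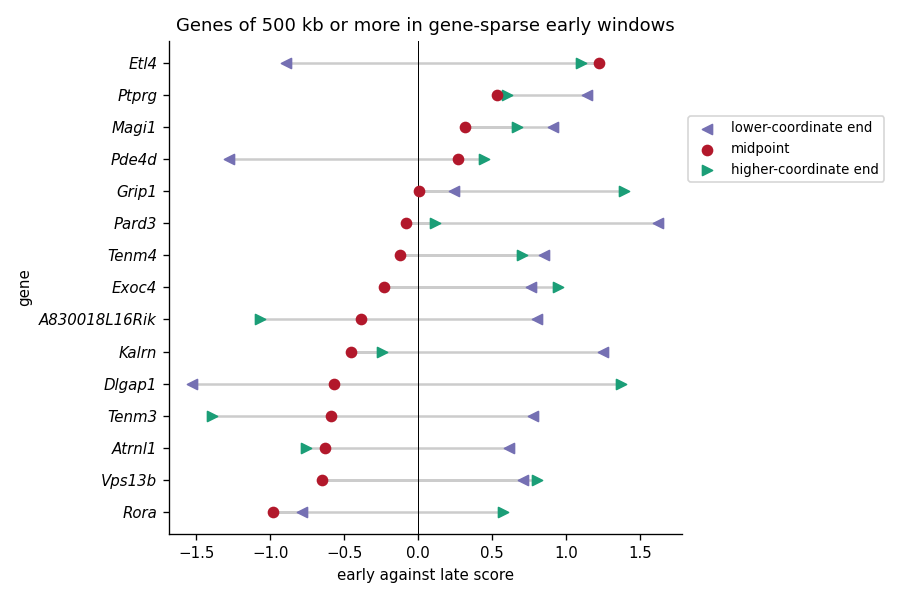
Early against late score at the lower-coordinate end, the midpoint and the higher-coordinate end of the 15 genes of 500 kb or more, ordered by the midpoint score. In Pard3, Tenm4, Exoc4 and Vps13b the midpoint lies below 0 with both ends above it, and 8 genes have ends on opposite sides of 0.

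Windows of the class stood at the margins of early chromatin as well as inside it. Of 80 with a measured window on both sides, 23 had no neighbour with a mean above 0, 37 had 1 and 20 had 2. In gene-sparse late windows these counts were 395, 263 and 43 of 701, in early windows with 5 to 9 genes 69, 128 and 84 of 281, and in early windows with 10 or more genes 57, 213 and 323 of 593. At least 1 neighbour had 10 or more genes in 37 of 80 (46.2%), against 174 of 701 (24.8%) in gene-sparse late windows, 132 of 281 (47.0%) in early windows with 5 to 9 genes and 487 of 593 (82.1%) in early windows with 10 or more genes. Smoothing over 300 kb ties the edges of neighbouring windows to each other.

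**Figure D5:**
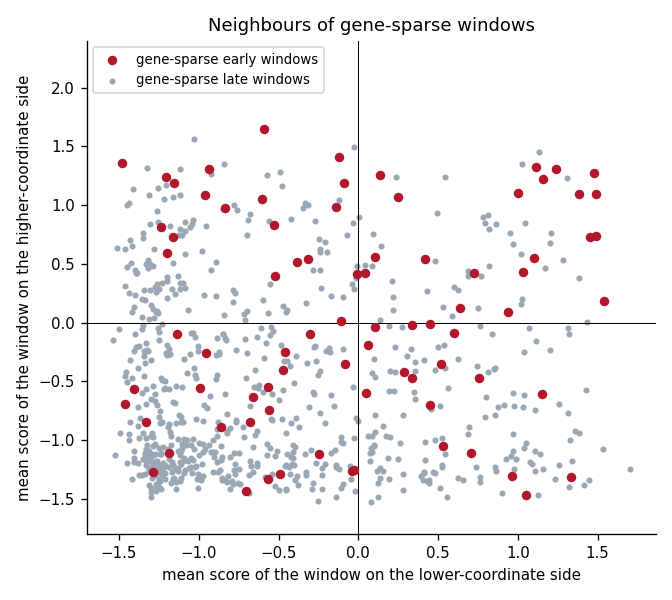
Mean score of the neighbouring window on the lower-coordinate side (horizontal axis) and on the higher-coordinate side (vertical axis) for gene-sparse early windows (red, 80) and gene-sparse late windows (grey, 701). Of the early windows 23 lie at the lower left, where both neighbours are at or below 0, and 20 in the upper right.

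For each window the run of positions above 0 with the largest overlap was taken, which need not cover most of the window. These runs had a median length of 1.16 Mb over the class. The median was 1.32 Mb in early windows with 5 to 9 genes and 2.72 Mb in early windows with 10 or more genes. In its neighbours and its runs the class was thus close to early windows with 5 to 9 genes. The run was shorter than 1 Mb for 34 windows and at least 5 Mb for 7. The 83 windows had 82 distinct runs, whose median was 7 protein-coding genes, and 29 runs held 4 or fewer. The longest, of 10.8 Mb with 206 genes, ended inside the window of Tmem51 and Kazn (1.35), chr4:142000000-142999999. The shortest, of 0.22 Mb with 2 genes, was that of Rfc3 at the end of chromosome 5. Runs that held the midpoint of 1 gene were those of Sox2, of Nfib (0.46 Mb), of Tle4 (0.63 Mb) and of 6 further windows, including those of Cobl and Pde4d. In the window of Vps13b the gene in such a run was Osr2 (0.71), and the midpoint of Vps13b lay outside it. The run in the window of Exoc4 (0.36 Mb) held none.

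Adjacent members formed 6 pairs (12 windows). On chromosome 3 the window of Sox2 was followed by one at 0.40 with Atp11b (1.0), Dcun1d1 (1.0) and Mccc1 (0.71). On chromosome 6 the window of Magi1 (mean 0.049) was followed by that of Slc25a26 (0.17) and the growth factor receptor inhibitor gene Lrig1 (0.45), and this pair shared the run, of 1.51 Mb. On chromosome 4 the window of Nfib, Zdhhc21, Cer1 and Frem1 (0.25) had a mean of 0.10. Its neighbour, with Ttc39b (1.26), Snapc3 (1.46), the chromatin tether gene Psip1 (1.43) and Ccdc171 (0.94), had 0.81. On chromosome 8 the window of Abcc12 (0.20), the peroxisomal protease gene Lonp2 (1.11), the ubiquitin ligase gene Siah1a (1.45) and N4bp1 (1.22) had a mean of 0.25, and the next, with the synapse organizer gene Cbln1 (0.42), 4933402J07Rik (0.87) and Zfp423, 0.43. On chromosome 13 the windows of Diras2 (0.28), Syk (0.52), Auh (0.044) and Nfil3 (0.40) and of Ror2 (0.77), Sptlc1 (0.80), Gm38564 (0.77) and Msx2 had means of 0.13 and 0.12. On chromosome 1 those of Prex2 (0.33) with A830018L16Rik (-0.39) and of Sulf1 (0.81) with Slco5a1 (1.01) had 0.11 and 0.012.

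Early scores extended over long stretches without any protein-coding gene. In 36 windows the longest such stretch had no position at or below 0, and in 10 of these it was 300 kb or longer. The longest, of 535 kb, was in the window of Smad2, Skor2, Ier3ip1 and Hdhd2 on chromosome 18, with a mean of 0.47 and a lowest position of 0.20. Next were a stretch of 495 kb beside Tle3, Rplp1, Kif23 and Paqr5 (mean 0.45, lowest 0.010) and 1 of 473 kb beside Jade1 (1.18) and Pgrmc2 (0.76), with a mean of 0.87. The earliest of the 8 longest lay on chromosome 16 just past the end of Opa1, from 29663127 to 29997853 (335 kb), with a mean of 1.23 and no position below 1.09. Stretches were measured only inside a window, so those that reached its edge, such as this one, were cut there. The windows were chosen by the same score and no count for other windows is set beside these, so nothing is read from the counts.

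The mean over positions inside protein-coding genes was above that outside in 47 of 83 windows (56.6%), against 407 of 686 (59.3%) in gene-sparse late windows and 388 of 613 (63.3%) in early windows with 10 or more genes. The median difference, inside minus outside, was 0.087 in the class, against 0.090 in gene-sparse late windows. The highest position of a window lay inside a protein-coding gene in 28 of 83 windows (33.7%), against 285 of 713 (40.0%) in gene-sparse late windows, and inside or within 50 kb of one in 69 (83.1%), against 511 (71.7%). It was farthest away in the window of Jarid2 (133 kb), followed by those of Sox2 (128 kb) and of Plaat1 and Opa1 (125 kb).

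The class was sparse in protein-coding gene midpoints but not in all genes. Protein-coding genes covered a median of 38.6% of a window, against 30.2% in gene-sparse late windows and 58.5% in early windows with 10 or more genes, and 18 of 83 windows were touched by more than 4 such genes (at most 6). Annotated noncoding genes numbered 1033 in all, with a median of 11 per window (quartiles 8 and 15), against 6 in gene-sparse late windows and 15 in early windows with 10 or more genes. Long noncoding RNA genes had a median of 7, against 3 in gene-sparse late windows and 8 in early windows with 10 or more genes. Early windows with 5 to 9 genes had medians of 12 noncoding and 7 long noncoding RNA genes, with 53.5% of a window covered by protein-coding genes. The noncoding gene numbers of the class were thus close to those of early windows with 5 to 9 genes. At each number of protein-coding genes the median of noncoding genes was higher in the class than in gene-sparse late windows, with 7 against 5 at 1 gene, 10 against 7 at 2, 12 against 7 at 3 and 12 against 8 at 4. A window of Tle3, Rplp1, Kif23 and Paqr5 held the most long noncoding RNA genes, 25. Counting every annotated gene left 1 window, that of Prex2.

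The most extreme was chr12:109000000-109999999, which held 3 protein-coding genes, Begain (0.56), Dlk1 (0.11) and Rtl1 (-0.21), and 92 noncoding ones, 60 of them miRNA genes. It is the imprinted Dlk1 domain, where protein-coding genes are expressed from the paternal copy and the noncoding RNAs Meg3, Rian and Mirg from the maternal copy. The score does not separate the copies. This window had the lowest mean of the class, 0.00094, with 31.6% of its positions above 0, between neighbours at 1.16 and 1.23. Meg3 had -0.20, Rian -0.19 and Mirg -0.047. Of the 57 miRNA hairpins with a RefSeq sequence in the window, from 109563692 to 109747960, 0 lay above 0, with scores of -0.21 to -0.040 (median -0.082). The highest position of the window, 0.84, lay at its lower-coordinate end, on the side of Begain.

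Several miRNAs of this cluster share a seed, the bases 2 to 8 that pair with targets. Of 112 mature sequences there, 10 seeds occurred in more than 1 miRNA gene. The 3 pairs below, from RefSeq and with the seed in capitals, show members of the cluster with a seed in common.

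mmu-miR-379-3p, chr12:109709102-109709123, plus strand: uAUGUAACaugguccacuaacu

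mmu-miR-411-3p, chr12:109710225-109710246, plus strand: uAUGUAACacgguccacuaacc

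mmu-miR-376b-5p, chr12:109723471-109723492, plus strand: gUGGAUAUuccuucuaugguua

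mmu-miR-376c-5p, chr12:109722733-109722754, plus strand: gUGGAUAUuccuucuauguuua

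mmu-miR-758-5p, chr12:109712823-109712843, plus strand: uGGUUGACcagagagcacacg

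mmu-miR-1197-5p, chr12:109712361-109712381, plus strand: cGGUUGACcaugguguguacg

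The members of a pair lay within a few kb of each other, closer than the smoothing width, so the score gives them no separate values. Of 83 windows 21 (25.3%) held any miRNA gene, against 97 of 713 (13.6%) in gene-sparse late windows and 77 of 285 (27.0%) in early windows with 5 to 9 genes. The class held 88 miRNA genes in all. After the Dlk1 window the next highest number was 4, in the window of Ptch1, the Fanconi anaemia gene Fancc (0.82), Aopep (0.89) and Ercc6l2 (0.67).

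Promoters of genes in the class were often rich in CpG. A sequence was held for 206 of 257 genes (80.2%), from 250 bases before to 50 after the listed start. A CpG count of at least 0.6 times that expected from base composition was found in 139 of 206 (67.5%), against 5368 of 9802 (54.8%) in early windows with 10 or more genes and 8184 of 16457 (49.7%) over all autosomal protein-coding genes. The median observed over expected ratio was 0.77 in the class, against 0.65 and 0.60. For gene-sparse late windows the check was void, since 74.8% of genes had a sequence, and likewise for early windows with 5 to 9 genes (77.5%). The share is therefore not shown to be particular to the class.

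Short motifs were searched on both strands of the same promoters, and a match is not taken as a site. GGGCGG, the GC box, was found in 126 of 206 (61.2%), against 52.4% in early windows with 10 or more genes and 47.3% of all autosomal promoters, and the check was void for the same classes as above. CCAAT was found in 74 (35.9%), against 38.9% and 39.0%. TATAAA was found in 11 (5.34%), against 10.4% and 13.5%. CpG and GC box counts overlap by construction, since each GC box holds a CpG. Of the genes with a promoter printed above, Sox2, Klf4, Mycn and Shq1 had GGGCGG in the 300 bases searched, and Otx2 had TATAAA.

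All 19 autosomes held members. Chromosome 13 had the most, 9 of 52 gene-sparse windows, followed by chromosome 6 with 8 of 49 and chromosomes 2 and 14 with 7 each. Chromosome 19 had the highest share, 4 of 17 (23.5%), and chromosome 17 the lowest, 1 of 24 (4.17%), that of Dlgap1, Tgif1 (1.35) and the myosin light chain genes. Of 83 windows 9 (10.8%) lay within 5 Mb of the last measured position of a chromosome, against 32 of 713 (4.49%) in gene-sparse late windows and 37 of 614 (6.03%) in early windows with 10 or more genes. Within 5 Mb of the first position lay 3 of 83, against 32 of 713. Of the 9 at the distal end, those of chromosomes 5, 7 and 19 were the last windows of their chromosomes and were cut short, with 102, 55 and 40 positions.

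Just above the threshold, besides the Dlk1 window, were those of Sulf1 (mean 0.012), of Rora, Ice2 (0.65), Anxa2 (0.48) and Foxb1 (mean 0.020), of Pdcd6ip (0.96), Clasp2 (0.90), Ubp1 (0.76) and Fbxl2 with a mean of 0.022, and of Dlg5 (0.36), E330034G19Rik (0.45), Polr3a (0.48) and Rps24 with a mean of 0.038. Just below it were the windows of Gpr33 (0.97), Nubpl (-0.034), Arhgap5 (0.28) and Akap6 (-1.01) with a mean of -0.010, and of Eci2 (0.35), Cdyl (0.55), Rpp40 and Ppp1r3g with -0.015. Next were those of Osbpl10 (0.80), Stt3b (0.64) and Gadl1 (-1.51) with -0.024, of the forkhead gene Foxp1 (-0.38), Eif4e3 (-0.046), Gpr27 (-0.036) and Prok2 (0.0044) with -0.025, and of Oxr1 (0.027) and Abra (0.18) with -0.027. With windows laid 500 kb further along, 78 qualified, and 31 of the 83 windows overlapped 1 of these, so membership rests in part on where the grid starts.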

How the data were processed

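The authors deposited a score at each measured position, which sets the early S library against the late S library after smoothing across 300 kb, per the file headers and the table's name. Reads were aligned with Bowtie2 to mm10, per the submitters' processing notes. How reads were counted and scaled was not given in the sources used here, nor was the log base. Of 384798 positions 4 had no value, and 0 columns of per-sample values went unused.

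Gene places came from a RefSeq table of GRCm38.p6. It listed 348 genes of scaffolds under chromosome names, and these were left out. A gene took the score of the position nearest its midpoint, within 100 kb (median distance 1.61 kb in the class). Scripts ran in Python 3.11.15 with numpy 2.4.6, pandas 2.3.3 and scipy 1.17.1, and were tested on simulated data.

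With 1 library per fraction no test was possible. The members, lists and comparisons were chosen with earlier results of these data known. Genes named were those of the 10 highest windows, of the 5 windows on each side of the threshold, of adjacent members, list genes, genes of 500 kb or more, sole genes and genes below 0. Other genes, stretches and miRNAs named were chosen after their values were seen. CpG of the first listed promoter was used. The GC content of windows was not analysed here, and 1 window of the X chromosome is not reported here.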

Additional observations from a re-analysis of the deposited data

How the results depend on the processing

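At the autosomal median of the score (-0.305) the class grew to 162 windows, all 83 among them, and the share with an early neighbour was 82.3%, against 71.2% at the deposited zero point. With a mean above 0.25 required, 47 windows were left, with a median mean of 0.521, 92.7% of genes above 0 and 74.2% CpG-rich promoters. Using the median of positions gave 92 windows with a median of 0.405. On a grid shifted by 500 kb there were 78 windows and 75.3% CpG-rich promoters, against 67.5%. Counting all annotated genes changed the class most, leaving 1 window with a mean of 0.107. Promoter GC content, another measure, had a median of 62.0%. The mean over all promoters of a gene, chosen after seeing the data, gave 61.2%. Of 49 alternative values 38 stayed near the main value and 11 moved. Near meant within its interval (95%, over windows or genes, not replicates) or, for counts, within 1.5 times. Every setting kept only windows above its own zero point, so a reversal of sign was not possible and is not counted. At least 100 positions left 81 windows, counting overlapping genes 65, and 1 position per 300 kb 81, of which 70 were among the 83. No paired analysis was possible because there was 1 library per fraction. Depth is unknown, so it could not be said which values rest on few reads.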

Other observations

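Outside the autosomes, 69 windows of the sex chromosomes had 1 to 4 protein-coding genes, 67 of them on X, and 5 had a mean above 0. The earliest, chrX:52000000-52999999, had a mean of 1.05 and no position below 0.61. It held the glypican genes Gpc4 (1.05) and Gpc3 (0.62), Ccdc160 (1.38) and the chromatin-associated gene Phf6 (0.94). In chrX:99000000-99999999, at 0.24, were Stard8 (0.20), the ephrin gene Efnb1 (0.29), Pja1 (0.44) and Tmem28 (-0.15). The window chrX:17000000-17999999, at 0.028, held Efhc2 (-0.27) and Fundc1 (0.38). On chromosome Y the window of Kdm5d (0.54), Zfy1 (0.22) and Uba1y (0.12) had 0.043 over 34 positions, with a range of -1.73 to 1.09. These values are descriptions from the same pair of libraries.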
